A study of Caenorhabditis elegans with 36 samples.

Results

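Worms that carry 123 CUG repeats in muscle RNA were compared as 2-day adults and as L4 larvae, in 12 of the 36 libraries of a study of Caenorhabditis elegans. The 12 libraries were chosen by their labels and are those of both 123CUG strains at both stages, 3 libraries in each of 4 groups. Strain 1 carries the insertion mgIs64 and strain 2 the insertion mgIs84 of the same construct. In both, the myo-3 promoter drives GFP RNA with 123 CUG repeats in its 3' UTR. That promoter is active in body wall muscle, so the worms model repeats in muscle, and all 12 libraries carry the repeats at both stages. The strains with the construct without repeats (0CUG, mgIs65 for strain 1 and mgIs85 for strain 2; 12 libraries) serve only to ask where the stage change differs with the repeats. All of these animals were of the Bristol background, were collected whole after synchronisation with hypochlorite, and were fed HT115 bacteria holding an empty RNAi vector. The age of the adults is given as 2 days, and that of the larvae as the stage L4. The wider study asks how the splicing factor MBL-1, which binds CUG repeats, bears on mitochondria through carnitine palmitoyltransferase.

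L4 is the last larval stage of the worm. During it the germ line of the hermaphrodite makes sperm, the vulva and uterus form, and the epidermis secretes the adult cuticle before the final moult. After the moult the germ line switches to oocytes, the intestine makes yolk that oocytes take up through the receptor RME-2, and fertilised eggs are covered by a chitin-containing shell. Somatic cells no longer divide in the adult, whereas the germ line and the embryos held in the uterus do.

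The 12 libraries held 25239933 to 34492927 reads and 14997 to 17437 genes with reads. Ribosomal RNA took 0.305% to 9.97% of the reads, with the highest share in L4 replicate 1 of strain 1. The first principal component held 83.1% of the variance and separated all adult libraries from all L4 libraries, and the second, with 4.87%, separated the strains. Adult replicate 3 of strain 2 lay farther out on the first component, at 186, than the other adult libraries, at 162 to 171, while L4 libraries had negative values. Whether the 3 libraries of a group came from separate cultures is not labelled, so every p-value rests on a spread among libraries that could be technical. The labelled stages matched their defining markers. The yolk protein genes and their receptor together had 100000 to 134000 CPM (reads in proportion to the library total, with TMM scaling) in adults, against 1680 to 2790 CPM at L4, and the major sperm proteins had 1.62 to 8.41 CPM in adults, against 197 to 513 CPM at L4. The table names no transgene, so the repeat RNA itself was not analysed here.

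**Figure D1:**
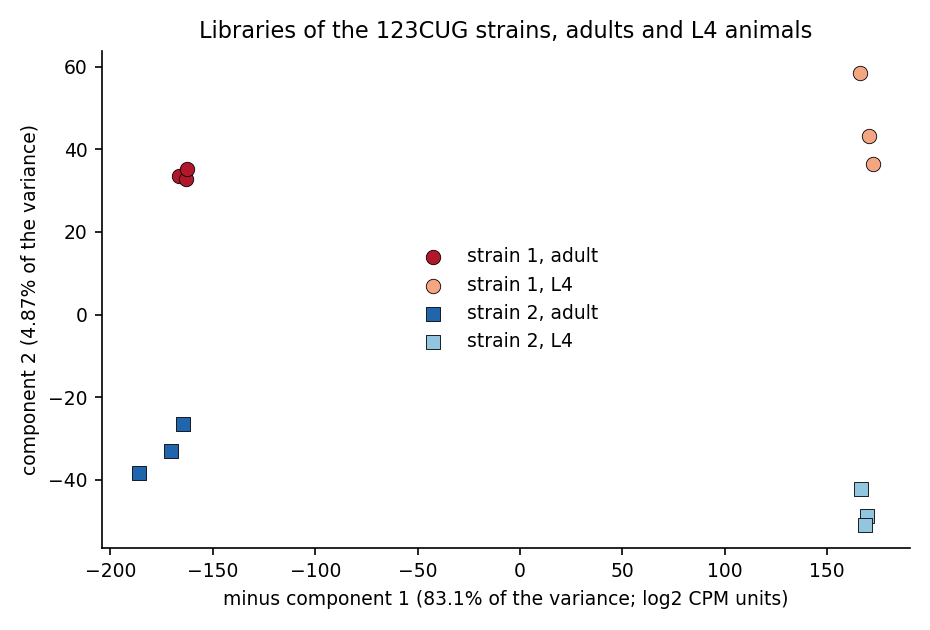
First and second principal components of the 12 123CUG libraries, computed from log2 CPM, with points marked by stage and strain. The first component (83.1% of the variance) is drawn with its sign turned, so that adults lie at the left and L4 larvae at the right, and strain 1 lies above strain 2 on the second (4.87%).

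Most genes differed between the stages. Of 16043 genes tested, 13398 were called (83.5%) at an edgeR adjusted p under 0.05. Among them 5829 rose in adults (36.3%) and 7569 fell (47.2%), and 4196 rises (26.2%) and 6120 falls (38.1%) were at least 2-fold, together 10316 genes (64.3%). The median change over all genes tested was -0.38 on the log2 scale, adults over L4, and a gene or list that falls by about that much is no lower than the typical gene. In strain 1, 12297 genes were called (76.7%), of which 5549 rose (34.6%) and 6748 fell (42.1%). In strain 2, 12491 were called (77.9%), of which 5455 rose (34%) and 7036 fell (43.9%). The 11172 genes called in the same direction in both strains made up 90.9% of the calls of strain 1 and 89.4% of those of strain 2, and 44 genes were called in opposite directions. In whole worms, fewer cells of a type and less RNA per cell cannot be told apart, which holds for every value below.

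Genes were then read in 38 lists by function, which cover 1029 tested genes. The plot of the lists shows which groups moved together. Germ line, eggshell, yolk and cell cycle lists lay on the side of adults, while cuticle, moulting, sperm, muscle and neuronal lists lay on the side of L4 larvae. Since 83.5% of all genes were called, a high number of calls in a list is not in itself a result, and the counts below are read by direction. Some genes named below share bases with a neighbour, on the other strand unless stated: aptf-3, asg-1, bli-1, bli-2, cle-1, col-119, col-124, cpt-1 (same strand), cut-2, cyc-2.2, dgat-2 (same strand), dhs-28, emb-8, fat-5, gas-1, glp-1, immt-2, lin-3, madd-4, mcm-7, mex-1, mlc-2, nekl-2, pat-2, prg-1, prp-40, ptr-10, rict-1, snf-5, tbh-1, tni-4, ucr-2.3, unc-38 and wrt-2. Whether the library kit marks strand is not given in the sources used here, so reads of such pairs cannot be told apart.

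**Figure D2:**
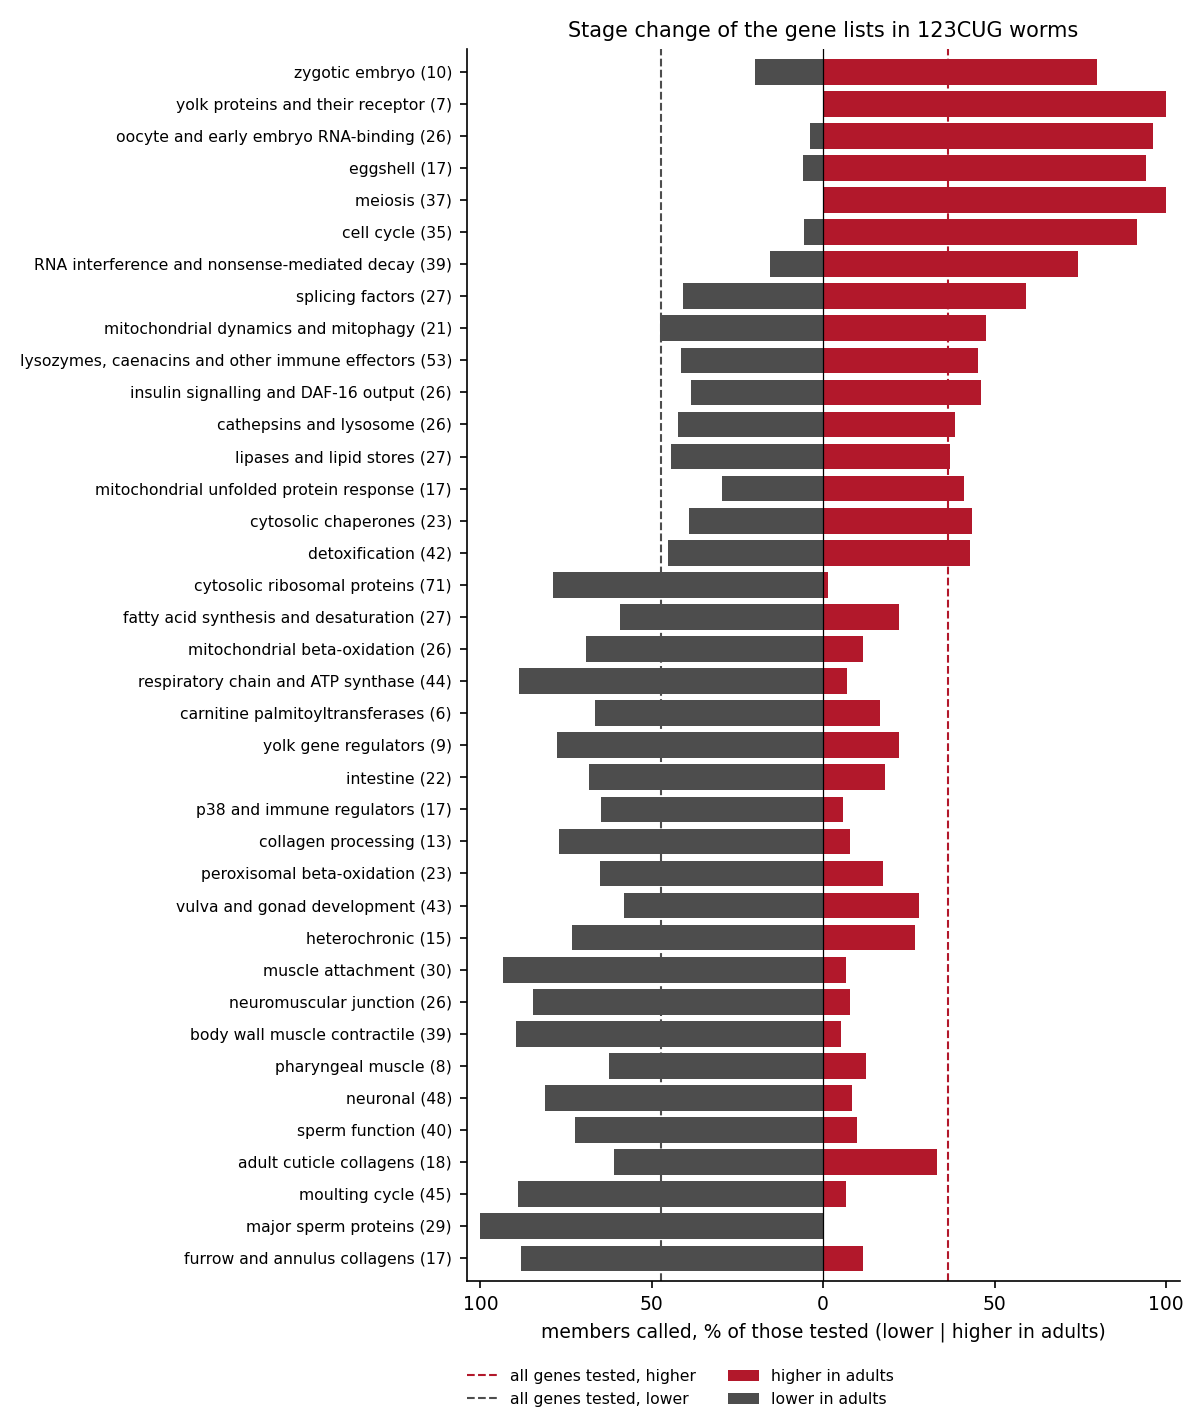
Members of each gene list called as lower (to the left) or higher (to the right) in adults than at L4, in percent of the members tested. The number of members tested stands after each list name, and lists are ordered by their median log2 change. Dashed lines mark the shares over all genes tested. All 7 members of the yolk list were higher and all 29 major sperm protein genes were lower.

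Yolk genes rose in adults. All 7 genes of yolk proteins and their receptor rose, against 36.3% of all genes, with a median change of 6.07. vit-2 (C42D8.2; chromosome X, 5101032 to 5106173), which encodes a vitellogenin, had 29370 to 40080 CPM in adults (median 36350), against 494 to 911 CPM at L4 (median 694). Every adult library lay far above every L4 library (log2 5.70, SE 0.16, edgeR adjusted p = 1.38e-13). vit-6 (K07H8.6; chromosome IV, 8261145 to 8266463), which encodes the vitellogenin that is cleaved into smaller yolk proteins, had 27060 to 33040 CPM in adults (median 28660), against 564 to 947 CPM at L4 (median 783) (log2 5.28, SE 0.13, edgeR adjusted p = 3.31e-14). rme-2 (T11F8.3; chromosome IV, 5469995 to 5473171), the oocyte yolk receptor, had 231 to 405 CPM in adults (median 298), against 2.78 to 10.4 CPM at L4 (median 3.96) (log2 6.08, SE 0.31, edgeR adjusted p = 2.84e-10). The receptor is made in the germ line and the vitellogenins in the intestine, and both were higher in adults. The near-identical genes vit-3, vit-4 and vit-5 can share reads, and their changes, 6.07, 6.18 and 6.25, are uncertain as separate values.

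The genes that act on yolk gene expression did not follow the yolk genes. Of 9 yolk gene regulators, 2 rose and 7 fell, with a median of -1.06. zfp-2, which encodes a zinc finger protein, had 45.2 to 56.5 CPM in adults (median 50.2), against 7.05 to 10.8 CPM at L4 (median 9.43) (log2 2.44, SE 0.12, edgeR adjusted p = 2.88e-11). rict-1, the TORC2 subunit Rictor, was higher by 0.70 (SE 0.088), the smaller of the 2 rises. Among the falls, lin-29, a zinc finger factor of the larva-to-adult switch, had 1.82 to 3.88 CPM in adults, against 29.97 to 42 CPM at L4 (log2 -3.87, SE 0.18, edgeR adjusted p = 1.49e-11). elt-2, the main GATA factor of the intestine, had 9.04 to 23.1 CPM in adults, against 37 to 53.1 CPM at L4 (log2 -1.17, SE 0.19, edgeR adjusted p = 3.38e-05). All 6 adult libraries lay below all 6 L4 libraries for both factors. mab-3, a DM-domain factor that represses yolk genes in males, changed by -2.82 (SE 0.54), and its adult and L4 libraries overlapped.

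RNA-binding proteins of oocytes and early embryos rose nearly without exception. Of the 26 tested, 25 rose and 1 fell, with a median of 5.31, and their summed level was 7070 to 8390 CPM in adults, against 450 to 571 CPM at L4. pos-1 (F52E1.1; chromosome V, 8414085 to 8415255), which controls maternal mRNAs in the embryo, had 328 to 452 CPM in adults (median 372), against 3.16 to 10.8 CPM at L4 (median 4.92). Adults were higher in every library (log2 6.17, SE 0.18, edgeR adjusted p = 2.89e-13). puf-5, a translational repressor of oocytes, changed by 6.16 (SE 0.24), and puf-7, of the same PUF family, by 6.45 (SE 0.35). mex-1, which restricts germ cell fate factors to the posterior of the embryo, changed by 6.29 (SE 0.37). The smallest rises, named after their values were seen, were of lin-28, a heterochronic RNA-binding protein, by 1.61 (SE 0.082), gld-2, a poly(A) polymerase of the germ line, by 1.67 (SE 0.066), and lin-41, which holds oocytes in arrest, by 1.80 (SE 0.13). The member that fell, etr-1, a CELF-type protein of muscle, changed by -0.55 (SE 0.064).

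Eggshell genes behaved alike, with 16 rises and 1 fall among 17 and a median of 5.18. Their summed level was 4650 to 6040 CPM in adults, against 572 to 679 CPM at L4. cpg-2 (B0280.5; chromosome III, 7102086 to 7103992), a chitin-binding chondroitin proteoglycan of the shell, had 882 to 1238 CPM in adults (median 1019), against 6.4 to 32 CPM at L4 (median 13.7) (log2 6.21, SE 0.30, edgeR adjusted p = 1.45e-10). cbd-1, another chitin-binding protein of the shell, had 416 to 748 CPM in adults, against 5.89 to 22.8 CPM at L4 (log2 5.67, SE 0.29, edgeR adjusted p = 3.36e-10). egg-2, an oocyte surface receptor that sperm entry needs, changed by 5.57 (SE 0.27). The rises were all at least 2-fold, and the fall, emb-8, a cytochrome P450 reductase, was smaller at -0.87 (SE 0.097).

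Meiosis genes all rose, 37 of 37 tested of 39 listed, with a median of 3.70 and a summed level of 1860 to 2100 CPM in adults, against 135 to 199 CPM at L4. spo-11 (T05E11.4; chromosome IV, 11123132 to 11124847), which makes the double-strand breaks of meiotic recombination, had 54.6 to 77.5 CPM in adults (median 67.4), against 2.44 to 4.4 CPM at L4 (median 3.21) (log2 4.36, SE 0.12, edgeR adjusted p = 8.53e-14). htp-3, a protein of the chromosome axis, had 81.3 to 89.8 CPM in adults, against 3.44 to 7.5 CPM at L4 (log2 4.06, SE 0.14, edgeR adjusted p = 6.43e-13). zim-2, which binds pairing centres of chromosomes, changed by 4.45 (SE 0.25).

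Cell cycle genes followed, with 32 rises and 2 falls among 35 and a median of 2.21. cyb-3 (T06E6.2; chromosome V, 15395694 to 15397348), a mitotic cyclin B, had 366 to 469 CPM in adults (median 419), against 10.5 to 19.2 CPM at L4 (median 18.6) (log2 4.63, SE 0.12, edgeR adjusted p = 3.01e-14). cyb-2.1 and cyb-2.2, near-identical cyclins that can share reads, changed by 4.82 and 4.91. mcm-7, a subunit of the replicative helicase, had 211 to 240 CPM in adults, against 17.5 to 26.3 CPM at L4 (log2 3.33, SE 0.088, edgeR adjusted p = 5.28e-14). The genes that fell act in the first gap phase. cki-1, an inhibitor of cyclin-dependent kinases, had 2.12 to 2.93 CPM in adults, against 10.4 to 17.9 CPM at L4 (log2 -2.53, SE 0.19, edgeR adjusted p = 4.24e-09), and cyd-1, cyclin D, had 1.68 to 3.92 CPM in adults, against 6.84 to 13.3 CPM at L4 (log2 -1.73, SE 0.24, edgeR adjusted p = 8.27e-06).

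Genes that the embryo switches on were read at low levels. Of 20 zygotic genes listed, 10 passed the filter on low counts, of which 8 rose and 2 fell, and a gene that passed only through its adult reads had to rise. pes-10, an early transcript of the embryo, had 1.54 to 3.16 CPM in adults, against 0 CPM in all 6 L4 libraries. With no read in the 6 L4 libraries it was at least 136-fold higher in adults, taking 3 reads over the 6 libraries as the floor. sdz-28, a target of the fate factor SKN-1 by its name, was likewise at least 147-fold higher, and tbx-37, a T-box factor of the embryonic pharynx, at least 63.1-fold. Both falls were of genes that larvae use too: ref-1, a bHLH factor of Notch signalling, at -3.89 (SE 0.23), and elt-7, an intestinal GATA factor, at -1.101 (SE 0.20).

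Sperm genes went the other way. All 29 major sperm protein genes fell, with a median of -6.85, or -6.81 with members at 0 in adults put at the floor. msp-3 (F26G1.7; chromosome II, 4785861 to 4786315) had 0 to 0.374 CPM in adults (median 0), against 9.47 to 15 CPM at L4 (median 12.2) (log2 -7.29, SE 0.59, edgeR adjusted p = 1.35e-08). msp-55 had 0 CPM in all 6 adult libraries, against 2.77 to 12.58 CPM at L4, which is at least 480.3-fold lower in adults. These genes are near-identical copies that share reads, so the values of single members are uncertain. A sperm gene that passed the filter on low counts only through its L4 reads had to fall, so the counts of falls here and among the sperm function genes are a description. In L4 larvae of strain 1 the median member lay 0.738 above the rest of the group on the log2 scale in replicate 3 and 0.436 below it in replicate 1. Sperm function genes moved the same way for the most part, with 29 falls and 4 rises among 40 tested of 48 listed and a median of -4.76. gsp-3, a sperm phosphatase, had 0 CPM in all 6 adult libraries, against 2.36 to 9.95 CPM at L4, at least 379-fold lower in adults. Of the rises, spe-44, a transcription factor of the sperm programme, had 14.2 to 20.9 CPM in adults, against 0.194 to 1.6 CPM at L4 (log2 4.01, SE 0.32, edgeR adjusted p = 9.46e-09), and ssp-37, of a sperm-specific protein family, had 12.56 to 28.1 CPM in adults, against 0.106 to 1.06 CPM at L4 (log2 5.38, SE 0.42, edgeR adjusted p = 1.45e-08).

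Genes of the cuticle and epidermis were prominent among the largest falls. The 10 largest by the naming rule were col-131, col-145, wrt-4, cbn-1, rol-6, bah-1, col-49, bli-2, col-58 and rol-8. col-131 (C39E9.3; chromosome IV, 13065729 to 13067288), a cuticle collagen, had 0 CPM in all 6 adult libraries, against 78.2 to 93.5 CPM at L4. With no read in adults it was at least 4908-fold lower. wrt-4 (ZK678.5; chromosome X, 15752258 to 15757269), a hedgehog-like protein of the epidermis, had 1 read over the 6 adult libraries and 16921 over the 6 L4 libraries, an L4-to-adult ratio of 16900 (3032 to 667400) with its 95% counting interval. rol-6 (T01B7.7; chromosome II, 8733050 to 8734314), a collagen whose mutation makes worms roll, had 0 to 0.185 CPM in adults (median 0), against 232 to 268 CPM at L4 (median 253) (log2 -12.45, SE 0.25, edgeR adjusted p = 6.14e-15). cbn-1 was at least 2289-fold, bah-1 at least 1388-fold and col-58 at least 1002-fold lower in adults. All L4 libraries lay above all adult libraries for each of the 10 genes, as the naming rule requires.

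Collagens of the furrows and annuli, the circumferential ridges of the cuticle, fell in 15 cases and rose in 2 among 17 tested of 18 listed. Their median was -10.74, the lowest of the 38 lists, and their summed level was 8.69 to 32.7 CPM in adults, against 5230 to 6000 CPM at L4. A gene that passed the filter on low counts only through its L4 reads had to fall. The counts of falls here and in the other cuticle and moulting lists are therefore a description. For members near 0 in adults the fitted change, and with it the median, depends on the prior count. dpy-5 (F27C1.8; chromosome I, 5432158 to 5433054) had 0 to 0.703 CPM in adults (median 0.169), against 638 to 796 CPM at L4 (median 701) (log2 -11.54, SE 0.33, edgeR adjusted p = 6.12e-13). The collagen dpy-3 had 0 to 0.111 CPM in adults, against 106 to 138.8 CPM at L4 (log2 -11.85, SE 0.23, edgeR adjusted p = 4.87e-15). dpy-10, whose mutants are short and fat, had 0.961 to 4.27 CPM in adults, against 130.4 to 177 CPM at L4 (log2 -6.32, SE 0.29, edgeR adjusted p = 8.56e-11). The 2 rises were small in level: dpy-14 had 0.484 to 8.5 CPM in adults, against 0 to 0.158 CPM at L4 (log2 5.63, SE 1.0, edgeR adjusted p = 9.41e-05), and dpy-17 had 1.91 to 6.88 CPM in adults, against 0 to 1.26 CPM at L4 (log2 2.49, SE 0.57, edgeR adjusted p = 0.000816).

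Adult cuticle collagens split. Of 18 tested, 6 rose and 11 fell, with a median of -5.09, although the summed level was 5690 to 14100 CPM in adults, against 3980 to 4930 CPM at L4. col-143 (T15B7.3; chromosome V, 6835635 to 6836700) had 1229 to 2185 CPM in adults (median 1811), against 31.4 to 71.1 CPM at L4 (median 56.7) (log2 5.04, SE 0.25, edgeR adjusted p = 1.81e-10), col-119 had 1231 to 3697 CPM in adults, against 143.7 to 264 CPM at L4 (log2 3.54, SE 0.30, edgeR adjusted p = 9.97e-08), and col-140 had 1254 to 3053 CPM in adults, against 173 to 312 CPM at L4 (log2 3.18, SE 0.25, edgeR adjusted p = 4.03e-08). col-19, the collagen used as a marker of the adult epidermis, had 426 to 1263 CPM in adults, against 156 to 289 CPM at L4 (log2 1.88, SE 0.28, edgeR adjusted p = 2.98e-05). Among the falls, bli-1 and bli-2, which form the struts between the layers of the adult cuticle, changed by -10.82 (SE 0.31) and -12.23 (SE 0.34). col-63 had 0 to 0.724 CPM in adults, against 162 to 260.1 CPM at L4 (log2 -9.93, SE 0.41, edgeR adjusted p = 3.33e-11) and col-180 had 0.183 to 0.67 CPM in adults, against 261 to 394 CPM at L4 (log2 -9.43, SE 0.18, edgeR adjusted p = 3.87e-15). col-124 had 158 to 665 CPM in adults, against 259 to 444 CPM at L4, and its change of 0.05 (SE 0.34) did not pass (edgeR adjusted p = 0.893).

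The enzymes that fold and link collagen fell in 10 of 13 cases and rose in 1, with a median of -1.17. dpy-18 (Y47D3B.10; chromosome III, 11372881 to 11377980), a catalytic subunit of prolyl 4-hydroxylase, had 13.6 to 20.9 CPM in adults (median 17.6), against 133 to 180.2 CPM at L4 (median 154) (log2 -3.14, SE 0.11, edgeR adjusted p = 8.61e-13). phy-2, the other catalytic subunit, had 10.3 to 13.4 CPM in adults, against 96.4 to 121 CPM at L4 (log2 -3.21, SE 0.072, edgeR adjusted p = 1.18e-14). The subunit shared by both, pdi-2, had 250.1 to 347 CPM in adults, against 2111 to 2570 CPM at L4 (log2 -2.90, SE 0.078, edgeR adjusted p = 5.69e-14). All 3 genes of this enzyme were lower in adults. The rise was of skpo-1, a peroxidase, with 90.5 to 171 CPM in adults, against 5.88 to 9.44 CPM at L4 (log2 4.04, SE 0.15, edgeR adjusted p = 1.61e-12).

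Genes of the moulting cycle fell in 40 of 45 tested cases of 47 listed, and 3 rose, with a median of -5.17 and a summed level of 579 to 661 CPM in adults, against 5890 to 6900 CPM at L4. wrt-2, a hedgehog-like protein, had 2 reads over the 6 adult libraries and 9215 over the 6 L4 libraries, an L4-to-adult ratio of 4601 (1273 to 37990). wrt-6, of the same family, had 0.0744 to 0.419 CPM in adults, against 143.9 to 262.1 CPM at L4 (log2 -9.92, SE 0.23, edgeR adjusted p = 1.89e-14). cut-2, a cuticlin, had 0 to 0.561 CPM in adults, against 164 to 292 CPM at L4 (log2 -9.87, SE 0.35, edgeR adjusted p = 5.92e-12). nhr-23, the nuclear receptor that drives the moulting programme, changed by only -0.76 (SE 0.099). The rises were of chitinases, cht-1 at 5.48 (SE 0.54) and cht-3 at 5.01 (SE 0.19), and of nekl-2, a kinase needed for moulting, at 0.98 (SE 0.12).

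Developmental timing genes were mostly lower in adults, with 11 falls and 4 rises among 15 and a median of -1.72. lin-42, the Period homologue that cycles with the moults, had 0.11 to 1.59 CPM in adults, against 151 to 214 CPM at L4 (log2 -7.90, SE 0.33, edgeR adjusted p = 3.49e-11). lep-5 (H36L18.2; chromosome X, 12652587 to 12653522), a noncoding RNA of the timing pathway, had 38.6 to 78.6 CPM in adults, against 662 to 869.9 CPM at L4 (log2 -3.70, SE 0.17, edgeR adjusted p = 3.49e-11). lin-46, which acts at the late larval step, had 1 to 1.93 CPM in adults, against 7.63 to 14.3 CPM at L4 (log2 -3.10, SE 0.23, edgeR adjusted p = 4.34e-09). Together with lin-29 these late timing genes were lower in every adult library than in every L4 library.

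Genes of vulva and gonad development fell in 25 and rose in 12 of 43 tested cases, with a median of -1.21. glp-1 (F02A9.6; chromosome III, 9092241 to 9099683), the Notch receptor of germ line stem cells, had 135 to 168 CPM in adults (median 145), against 11.5 to 17.6 CPM at L4 (median 14.1) (log2 3.36, SE 0.084, edgeR adjusted p = 2.92e-14). apx-1, a Notch ligand of the early embryo, had 49.9 to 64.4 CPM in adults, against 1.28 to 3.43 CPM at L4 (log2 4.90, SE 0.19, edgeR adjusted p = 1.89e-12). The EGF-type ligand lin-3 had 28.5 to 33.7 CPM in adults, against 0.419 to 1.24 CPM at L4 (log2 5.01, SE 0.19, edgeR adjusted p = 1.85e-12). A Wnt of the early embryo, mom-2, had 39.4 to 61.5 CPM in adults, against 3.79 to 6.89 CPM at L4 (log2 3.19, SE 0.16, edgeR adjusted p = 5.16e-11). The Wnt genes of the larva fell: egl-20 had 0.686 to 1.77 CPM in adults, against 51.6 to 82.7 CPM at L4 (log2 -5.78, SE 0.22, edgeR adjusted p = 1.49e-12). The other Wnt named, lin-44, had 0.707 to 2.78 CPM in adults, against 40.02 to 53 CPM at L4 (log2 -4.76, SE 0.26, edgeR adjusted p = 1.41e-10). lin-48 and egl-38, transcription factors of the hindgut and vulva, changed by -4.33 (SE 0.54) and -3.61 (SE 0.34).

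**Figure D3:**
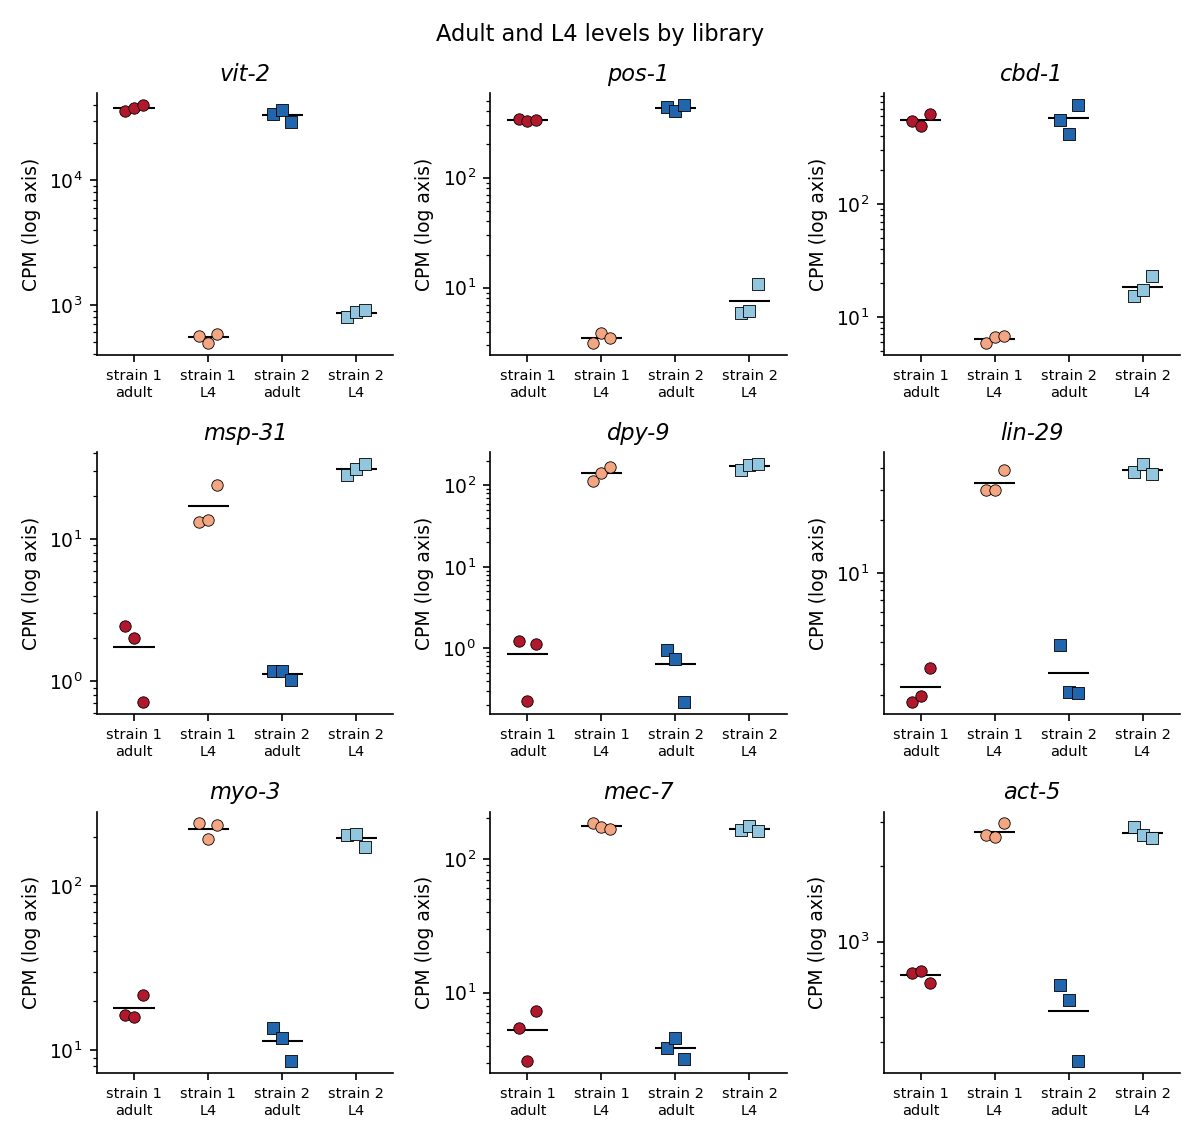
CPM of named genes in each of the 12 libraries on a log axis. From left to right, each panel shows strain 1 adults, strain 1 L4 larvae, strain 2 adults and strain 2 L4 larvae. vit-2 lies at 29370 CPM or above in all adult libraries, and myo-3 lies between 8.6 and 21.7 CPM in adults, below all L4 libraries.

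Muscle, the tissue in which the repeats are expressed, had lower transcript shares in adults. Of 39 body wall muscle contractile genes tested of 40 listed, 35 fell and 2 rose, with a median of -2.3 and a summed level of 5030 to 9050 CPM in adults, against 21800 to 27500 CPM at L4. myo-3 (K12F2.1; chromosome V, 12226816 to 12234343), the myosin heavy chain whose promoter drives the transgene, had 16.45, 16 and 21.7 CPM in strain 1 adults and 13.7, 11.9 and 8.6 CPM in strain 2 adults. At L4 it had 242, 194 and 236 CPM in strain 1 and 206, 208 and 173 CPM in strain 2. All adult libraries lay below all L4 libraries (log2 -3.86, SE 0.14, edgeR adjusted p = 1.16e-12). unc-54, the major body wall myosin, had 135 to 285 CPM in adults, against 1288 to 1708 CPM at L4 (log2 -2.80, SE 0.13, edgeR adjusted p = 1.31e-11). ttn-1, a titin-like protein of the sarcomere, had 1.1 to 2.4 CPM in adults, against 19.1 to 32.7 CPM at L4 (log2 -3.96, SE 0.18, edgeR adjusted p = 8.84e-12). The troponin I gene tni-1 had 5.62 to 9.6 CPM in adults, against 280 to 342 CPM at L4 (log2 -5.42, SE 0.12, edgeR adjusted p = 1.33e-14). The actin gene act-2, which is also used outside muscle, rose by 1.36 (SE 0.065), and tnt-3, a troponin T, by 0.34 (SE 0.10). unc-94, a tropomodulin, and unc-60, a cofilin, did not pass, with changes of 0.02 (SE 0.073) and -0.15 (SE 0.068) and edgeR adjusted p of 0.806 and 0.0533. The act genes are near-identical and can share reads.

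Genes that attach muscle to the epidermis and cuticle fell in 28 of 30 cases, with a median of -1.91. mua-3 (K08E5.3; chromosome III, 10160690 to 10183531), a transmembrane protein of the epidermal attachment, had 8.6 to 15.7 CPM in adults (median 11.2), against 419.5 to 523 CPM at L4 (median 469) (log2 -5.35, SE 0.13, edgeR adjusted p = 2.35e-14). pat-2, an integrin chain of the dense bodies, had 6.72 to 11.8 CPM in adults, against 79.3 to 95.3 CPM at L4 (log2 -3.20, SE 0.11, edgeR adjusted p = 8.14e-13). The perlecan of the muscle basement membrane, unc-52, had 31.7 to 60.1 CPM in adults, against 285 to 331 CPM at L4 (log2 -2.78, SE 0.12, edgeR adjusted p = 8.2e-12). The rises were of basement membrane genes, lam-3, a laminin chain, by 0.85 (SE 0.27) and cle-1, a collagen XVIII, by 0.79 (SE 0.17).

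Pharyngeal muscle genes were read at low levels. Of 8 tested of 10 listed, 5 fell and 1 rose, with a median of -2.38, while the summed level was 122 to 159 CPM in adults, against at most 153 CPM at L4, with overlapping libraries. myo-2 (T18D3.4; chromosome X, 12468061 to 12475341), a pharyngeal myosin, had 0 to 0.747 CPM in adults, against 0.708 to 3.88 CPM at L4 (log2 -3.72, SE 0.94, edgeR adjusted p = 0.00182), again with overlapping libraries, and myo-1, its partner, had 0 to 0.218 CPM in adults, against 0.567 to 4.53 CPM at L4 (log2 -4.79, SE 0.82, edgeR adjusted p = 6.3e-05). pha-4, the organ identity factor of the pharynx, had 1.8 to 7.39 CPM in adults, against 11.1 to 18.1 CPM at L4 (log2 -1.56, SE 0.23, edgeR adjusted p = 1.19e-05). The rise was of tni-4, a troponin I, with 6.51 to 12 CPM in adults, against 1.56 to 4.18 CPM at L4 (log2 1.56, SE 0.27, edgeR adjusted p = 7.82e-05). L4 replicate 1 of strain 1, the library richest in ribosomal RNA, had a median member 0.858 below the rest of its group on the log2 scale in this list. Without it all 4 genes named here remained called in the same direction.

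At the neuromuscular junction, 22 of 26 tested genes fell and 2 rose, with a median of -2.14. acr-16 (F25G6.3; chromosome V, 8561216 to 8563626), a nicotinic receptor of body muscle, had 0.156 to 1.84 CPM in adults (median 1.13), against 11.6 to 18.3 CPM at L4 (median 15.5) (log2 -3.99, SE 0.39, edgeR adjusted p = 1.52e-07). unc-38, a subunit of the levamisole receptor, had 0 to 0.991 CPM in adults, against 2.74 to 5.72 CPM at L4 (log2 -3.70, SE 0.62, edgeR adjusted p = 5.16e-05). The gene madd-4, which clusters receptors at the synapse, had 0 to 0.918 CPM in adults, against 3.27 to 7.57 CPM at L4 (log2 -3.64, SE 0.66, edgeR adjusted p = 0.000106). snf-6, a transporter of acetylcholine in muscle, rose by 0.94 (SE 0.12), and ric-8, a regulator of G proteins, by 0.34 (SE 0.098). Neuronal genes fell in 39 of 48 tested cases of 52 listed, and 4 rose, with a median of -3.24. mec-7 (ZK154.3; chromosome X, 7774856 to 7776682), a tubulin of touch neurons, had 3.09 to 7.32 CPM in adults, against 162 to 184 CPM at L4 (log2 -5.23, SE 0.17, edgeR adjusted p = 5.43e-13). The neuropeptide gene nlp-1 had 0.595 to 1.94 CPM in adults, against 33.5 to 44.6 CPM at L4 (log2 -5.34, SE 0.24, edgeR adjusted p = 9.5e-12). unc-46, which sorts the GABA transporter, had 3 reads over the 6 adult libraries and 206 over the 6 L4 libraries, an L4-to-adult ratio of 68.6 (23.1 to 335). Among the rises, tbh-1, tyramine beta-hydroxylase, had 84.8 to 151 CPM in adults, against 5.11 to 10.8 CPM at L4 (log2 3.81, SE 0.15, edgeR adjusted p = 2.49e-12), and tdc-1, tyrosine decarboxylase, changed by 1.096 (SE 0.10). Both enzymes are also made in gonadal sheath cells.

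mbl-1 (K02H8.1; chromosome X, 17001728 to 17008361), the muscleblind splicing factor that binds CUG repeats, had 17, 19.7 and 15.6 CPM in strain 1 adults and 18.5, 15.2 and 14 CPM in strain 2 adults. At L4 it had 36.3, 39.8 and 38.2 CPM in strain 1 and 31.3, 34.4 and 34.3 CPM in strain 2. Adults were lower in every library (log2 -1.097, SE 0.097, edgeR adjusted p = 3.59e-08). No difference was called between the strains (strain 1 minus strain 2, log2 -0.06, SE 0.19, edgeR adjusted p = 0.949) or between the constructs (123CUG minus 0CUG, log2 0.14, SE 0.16, edgeR adjusted p = 0.772). The construct value averages 0CUG strains that lay on both sides of 123CUG. The stage change was -1.86 in strain 1 and -0.61 in strain 2 of 0CUG, against -1.13 and -1.07 in 123CUG. Splicing factors as a list moved in both directions, 16 rising and 11 falling of 27 tested, with a median of 0.37. General factors were among the rises: rsp-5, an SR protein, had 111 to 147 CPM in adults, against 32.8 to 44.7 CPM at L4 (log2 1.75, SE 0.088, edgeR adjusted p = 3.63e-11), and prp-40, a U1 snRNP protein, changed by 1.41 (SE 0.084). Tissue-specific regulators were among the falls. unc-75, a neuronal CELF protein, had 0 to 0.514 CPM in adults, against 3.58 to 5.45 CPM at L4 (log2 -5.12, SE 0.60, edgeR adjusted p = 9.45e-07). The STAR protein asd-2, which acts in muscle, had 5.14 to 8.96 CPM in adults, against 71.8 to 82.3 CPM at L4 (log2 -3.40, SE 0.12, edgeR adjusted p = 1.1e-12). Another RNA-binding protein of muscle, sup-12, had 2.35 to 5.61 CPM in adults, against 16.9 to 18.7 CPM at L4 (log2 -2.21, SE 0.18, edgeR adjusted p = 1.78e-08). These reads count genes, so splicing itself was not measured.

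Intestinal genes fell in 15 and rose in 4 of 22 tested cases, with a median of -1.13 and a summed level of 4960 to 8290 CPM in adults, against 12300 to 14600 CPM at L4. act-5 (T25C8.2; chromosome III, 13604339 to 13606066), the actin of the brush border, had 336 to 766 CPM in adults (median 680.4), against 2590 to 2956 CPM at L4 (median 2658) (log2 -2.12, SE 0.14, edgeR adjusted p = 1.75e-09). An intermediate filament beneath it, ifb-2, had 46.8 to 106 CPM in adults, against 555 to 721 CPM at L4 (log2 -2.83, SE 0.15, edgeR adjusted p = 8.55e-11). mtl-2, a metallothionein, had 159.6 to 280.3 CPM in adults, against 37.9 to 58.3 CPM at L4 (log2 2.15, SE 0.14, edgeR adjusted p = 1.65e-09), and cpr-6, a cathepsin B, had 1371 to 2631 CPM in adults, against 636 to 781 CPM at L4 (log2 1.68, SE 0.12, edgeR adjusted p = 2.38e-09), both higher in adults. In adult replicate 3 of strain 2 the median member lay 0.625 below the rest of its group in this list and 0.637 below it in the lysosomal list. Without that library the intestinal and lysosomal genes named here remained called in the same direction. Cathepsins and other lysosomal enzymes rose in 10 and fell in 11 of 26 tested cases, with a median of 0.14. hex-1, a hexosaminidase, had 309 to 410.3 CPM in adults, against 29.6 to 39.8 CPM at L4 (log2 3.36, SE 0.098, edgeR adjusted p = 1.22e-13), and asah-1, an acid ceramidase, had 66.2 to 118 CPM in adults, against 7.73 to 12.7 CPM at L4 (log2 3.18, SE 0.16, edgeR adjusted p = 7.05e-11). asp-8, an aspartyl protease, had 1.36 to 5.44 CPM in adults, against 296 to 365 CPM at L4 (log2 -6.74, SE 0.26, edgeR adjusted p = 1.22e-11), and gana-1, an alpha-galactosidase, had 2.75 to 6.45 CPM in adults, against 27.9 to 44.9 CPM at L4 (log2 -3.11, SE 0.17, edgeR adjusted p = 1.4e-10), both lower in adults.

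Immune effectors also split, with 24 rises and 22 falls among 53 tested of 59 listed and a median of 0.25. cnc-7 (F53H2.2; chromosome V, 20394073 to 20394732), a caenacin, had 5.79 to 13.6 CPM in adults, against 0 CPM in all 6 L4 libraries, at least 587-fold higher in adults. lys-7, a lysozyme, had 11 to 58.9 CPM in adults, against 0.152 to 1.68 CPM at L4 (log2 5.50, SE 0.47, edgeR adjusted p = 6.53e-08). The saposin-like gene spp-12 had 0.732 to 1.79 CPM in adults, against 0 to 0.106 CPM at L4 (log2 5.47, SE 0.80, edgeR adjusted p = 1.22e-05). In the other direction, nlp-30, an antimicrobial peptide of the epidermis, had 0.488 to 1.56 CPM in adults, against 20.9 to 33.6 CPM at L4 (log2 -4.76, SE 0.26, edgeR adjusted p = 1.05e-10). The C-type lectin clec-60 had 0 to 0.841 CPM in adults, against 8.34 to 21.8 CPM at L4 (log2 -5.65, SE 0.60, edgeR adjusted p = 5.45e-07). The infection response gene irg-7 had 126 to 188 CPM in adults, against 3017 to 4455 CPM at L4 (log2 -4.42, SE 0.11, edgeR adjusted p = 2.22e-14). Regulators of immunity fell in 11 of 17 cases and rose in 1, with a median of -1.17. pmk-1 (B0218.3; chromosome IV, 8148794 to 8150741), the p38 kinase, had 7.16 to 14.7 CPM in adults, against 26.9 to 33.3 CPM at L4 (log2 -1.44, SE 0.17, edgeR adjusted p = 1.13e-06). Its upstream kinase sek-1 changed by -1.48 (SE 0.097), the adaptor tir-1 by -1.70 (SE 0.10), and hlh-30, the homologue of TFEB, by -1.42 (SE 0.096), all with adults below L4 in every library. Under scaling by library totals the single rise was no longer called.

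The carnitine palmitoyltransferases, which the study names, divided. These enzymes move long-chain fatty acids into mitochondria. Of 6 genes, 1 rose, 4 fell and 1 did not pass, with a median of -0.87. cpt-1 (Y46G5A.17; chromosome II, 12787830 to 12796452) had 126, 118.7 and 118 CPM in strain 1 adults and 154, 150.5 and 154 CPM in strain 2 adults, against 107, 86.9 and 68.5 CPM and 79.5, 78 and 82.6 CPM at L4 in the same strains. All adult libraries were higher (log2 0.70, SE 0.11, edgeR adjusted p = 1.71e-05), and the gene overlaps alkb-7 on the same strand, so its reads are uncertain. Its rise was smaller in 123CUG than in 0CUG worms (123CUG minus 0CUG, log2 -0.38, SE 0.11, edgeR adjusted p = 0.0325), a call lost without each of 6 of the 12 123CUG libraries, with an edgeR adjusted p of up to 0.0686. cpt-2 (R07H5.2; chromosome IV, 11179643 to 11183000) had 112.6 to 148 CPM in adults (median 134), against 216 to 233 CPM at L4 (median 222) (log2 -0.76, SE 0.068, edgeR adjusted p = 4.05e-08). cpt-6 (W01A11.5; chromosome V, 6490068 to 6493921) had 7.65 to 12.2 CPM in adults (median 9.47), against 28.2 to 38.6 CPM at L4 (median 32.4) (log2 -1.78, SE 0.12, edgeR adjusted p = 9.79e-10). Both were lower in all adult libraries. cpt-4 (K11D12.4; chromosome V, 5023738 to 5027725) was nearly absent from adults, with 0.521, 1.1 and 0.623 CPM in strain 1 adults and 0.998, 1.31 and 0.551 CPM in strain 2 adults, against 66.5, 55.9 and 64.6 CPM and 30.1, 26.8 and 29.7 CPM at L4 (log2 -5.63, SE 0.28, edgeR adjusted p = 4.12e-11). Its fall was larger in strain 1 (strain 1 minus strain 2, log2 -1.49, SE 0.37, edgeR adjusted p = 0.0397), where the L4 level was higher. That call was lost in turn without each of 10 of the 12 libraries, with an edgeR adjusted p of up to 0.0985. cpt-5 (F09F3.9; chromosome V, 13873172 to 13875878) had 42.6, 42.5 and 43.6 CPM in strain 1 adults and 33.3, 37.2 and 20.3 CPM in strain 2 adults, against 48.7, 69.96 and 51.4 CPM and 82.9, 94.4 and 92.6 CPM at L4 (log2 -0.99, SE 0.21, edgeR adjusted p = 0.000611). Its fall was smaller in strain 1 (strain 1 minus strain 2, log2 1.17, SE 0.25, edgeR adjusted p = 0.0193) and smaller in 123CUG than in 0CUG worms (123CUG minus 0CUG, log2 1.04, SE 0.17, edgeR adjusted p = 0.000288). The construct difference was not called in all 4 pairs of strains: the stage change was -0.40 in strain 1 and -1.57 in strain 2 of 123CUG, against -2.38 in strain 1 and -1.68 in strain 2 of 0CUG. In 123CUG strain 1 alone the change did not pass (edgeR adjusted p = 0.0521). The difference between strains was lost without adult replicate 2 or L4 replicate 1 of strain 1, or L4 replicate 2 or 3 of strain 2, with an edgeR adjusted p of up to 0.0905. cpt-3 (Y48G9A.10; chromosome III, 2082819 to 2088272) had 0.405 to 1.03 CPM in adults, against 0 to 1.61 CPM at L4 and did not pass (log2 0.34, SE 0.78, edgeR adjusted p = 0.689).

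Most genes of fatty acid oxidation outside this family fell. Mitochondrial beta-oxidation genes fell in 18 and rose in 3 of 26 tested cases, with a median of -0.68, against -0.38 for all genes. acdh-10, a medium-chain acyl-CoA dehydrogenase, had 41.8 to 72.8 CPM in adults, against 209.5 to 229 CPM at L4 (log2 -1.82, SE 0.098, edgeR adjusted p = 8.69e-11), and ech-1.1, of the trifunctional protein, had 0.851 to 4.13 CPM in adults, against 25.4 to 61 CPM at L4 (log2 -4.44, SE 0.40, edgeR adjusted p = 1.27e-07). acdh-8, another acyl-CoA dehydrogenase, had 2 reads over the 6 adult libraries and 1114 over the 6 L4 libraries, an L4-to-adult ratio of 556 (154 to 4598). Peroxisomal genes fell in 15 and rose in 4 of 23 tested cases, with a median of -1.21 and a summed level of 765 to 1450 CPM in adults, against 2640 to 2830 CPM at L4. acox-1.2, an acyl-CoA oxidase of ascaroside synthesis, had 35.1 to 70.9 CPM in adults, against 280.1 to 572 CPM at L4 (log2 -2.94, SE 0.20, edgeR adjusted p = 3.44e-09). A dehydrogenase of the same pathway, dhs-28, had 58.1 to 148 CPM in adults, against 432 to 508 CPM at L4 (log2 -2.104, SE 0.14, edgeR adjusted p = 1.57e-09). acox-1.5, of the same oxidase family, rose by 2.40 (SE 0.22), and pmp-1, a peroxisomal transporter, by 1.28 (SE 0.18).

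Fatty acid synthesis fell in 16 and rose in 6 of 27 cases, with a median of -0.37, about that of all genes. fasn-1 (F32H2.5; chromosome I, 8975384 to 8986522), the fatty acid synthase, had 39.3 to 61.4 CPM in adults (median 47.1), against 478 to 666 CPM at L4 (median 551) (log2 -3.53, SE 0.12, edgeR adjusted p = 4e-13). The elongase elo-4 had 0.851 to 2.18 CPM in adults, against 11.2 to 21.6 CPM at L4 (log2 -3.53, SE 0.28, edgeR adjusted p = 8.16e-09). fat-5 (W06D12.3; chromosome V, 17723780 to 17726825), the palmitoyl-CoA desaturase, had 29.6 to 128 CPM in adults, against 1.8 to 17.6 CPM at L4 (log2 3.26, SE 0.23, edgeR adjusted p = 4.25e-09), and acly-2, an ATP citrate lyase, had 151 to 174 CPM in adults, against 37.3 to 53 CPM at L4 (log2 1.88, SE 0.084, edgeR adjusted p = 9.89e-12), both higher in adults. Lipases and lipid storage genes rose in 10 and fell in 12 of 27 tested cases, with a median of 0.05 that became -0.04 under scaling by library totals. lipl-3, a lysosomal lipase, had 2.93 to 12.1 CPM in adults, against 0 to 0.291 CPM at L4 (log2 6.42, SE 0.59, edgeR adjusted p = 5.94e-08), and dgtr-1, an acyltransferase, had 29.7 to 40.1 CPM in adults, against 0.602 to 1.17 CPM at L4 (log2 5.16, SE 0.18, edgeR adjusted p = 6.66e-13). lipl-6, of the same lipase family, had 0 to 0.147 CPM in adults, against 15.1 to 21.4 CPM at L4 (log2 -8.24, SE 0.34, edgeR adjusted p = 4.55e-12), and dgat-2, which makes triglycerides, had 45.2 to 79.8 CPM in adults, against 196 to 305 CPM at L4 (log2 -2.05, SE 0.12, edgeR adjusted p = 2.62e-10).

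Respiratory chain and ATP synthase genes fell in 39 and rose in 3 of 44 tested cases, with a median of -0.73, and 13 of the falls were at least 2-fold. Their summed level was 13300 to 15800 CPM in adults, against 23100 to 25200 CPM at L4. gas-1 (K09A9.5; chromosome X, 15586813 to 15590397), a subunit of complex I, had 44.4 to 99.5 CPM in adults (median 80.4), against 326 to 382 CPM at L4 (median 354) (log2 -2.23, SE 0.14, edgeR adjusted p = 7.12e-10). cyc-2.2, a cytochrome c, had 0 to 0.112 CPM in adults, against 3.05 to 9.18 CPM at L4 (log2 -7.65, SE 0.58, edgeR adjusted p = 5e-09), and ant-1.4, an ADP/ATP carrier, had 0 to 0.185 CPM in adults, against 2.86 to 10.2 CPM at L4 (log2 -6.68, SE 0.58, edgeR adjusted p = 2.69e-08). The rises were of paralogues, asb-1 (F35G12.10; chromosome III, 4594541 to 4595821), the ATP synthase subunit b of the germ line, with 338 to 416 CPM in adults, against 58.9 to 84.7 CPM at L4 (log2 2.40, SE 0.071, edgeR adjusted p = 1.35e-13), ucr-2.3, a core protein of complex III, with 156 to 185 CPM in adults, against 8.61 to 17.3 CPM at L4 (log2 3.79, SE 0.11, edgeR adjusted p = 1.34e-13), and asg-1 with a change of 0.44 (SE 0.081). Genes of mitochondrial dynamics and mitophagy rose in 10 and fell in 10 of 21 cases, with a median of 0.29. The fission genes drp-1 and mff-2 rose by 0.78 (SE 0.061) and 1.68 (SE 0.081), and the fusion genes fzo-1 and eat-3 by 0.69 (SE 0.09) and 0.41 (SE 0.073). Not all fission genes rose, since mff-1 was called as lower in adults. Its change was -0.43 to -0.30 when single libraries were left out. That call was lost in turn without each of 9 libraries, with an edgeR adjusted p of up to 0.118. fndc-1 and allo-1, which act in the removal of paternal mitochondria, rose by 1.19 (SE 0.085) and 1.11 (SE 0.084). immt-2 and immt-1, of the cristae complex, went opposite ways, at 3.89 (SE 0.15) and -1.51 (SE 0.091). In the mitochondrial unfolded protein response, 7 genes rose, 5 fell and 5 did not pass of 17. Its reporters hsp-6 and hsp-60 had changes of -0.04 (SE 0.066) and 0.05 (SE 0.07), and its transcription factor atfs-1 of 0.00 (SE 0.092) (edgeR adjusted p = 0.556, 0.544 and 0.989).

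Stress and signalling lists were mixed. Chaperones, most of them cytosolic, rose in 10 and fell in 9 of 23 tested cases, with a median of -0.06. sip-1 (F43D9.4; chromosome III, 10506106 to 10506801), a small heat shock protein of embryos, had 500.3 to 683 CPM in adults, against 5.64 to 16.9 CPM at L4 (log2 5.96, SE 0.21, edgeR adjusted p = 2.62e-12), and hsf-1, the heat shock factor, changed by 1.72 (SE 0.08). hsp-3, the chaperone BiP of the endoplasmic reticulum, had 277 to 349 CPM in adults, against 1409 to 2137 CPM at L4 (log2 -2.43, SE 0.091, edgeR adjusted p = 1.59e-12). The insulin list rose in 12 and fell in 10 of 26 tested cases, with a median of 0.16. The metallothionein mtl-1 had 20.03 to 35.7 CPM in adults, against 0.343 to 1.95 CPM at L4 (log2 4.90, SE 0.37, edgeR adjusted p = 7.94e-09). The insulin-like peptide gene ins-18 had 0.0735 to 0.998 CPM in adults, against 10.3 to 17.8 CPM at L4 (log2 -5.25, SE 0.47, edgeR adjusted p = 4.37e-08). Detoxification genes rose in 18 and fell in 19 of 42 tested cases, with a median of -0.14. cyp-13A7, a cytochrome P450, had 4.48 to 7.47 CPM in adults, against 0 to 0.354 CPM at L4 (log2 5.24, SE 0.51, edgeR adjusted p = 1.18e-07). The glutathione transferase gst-38 had 3.23 to 14.4 CPM in adults, against 57.4 to 99.6 CPM at L4 (log2 -3.40, SE 0.20, edgeR adjusted p = 5.48e-10).

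Ribosomal protein genes fell by small amounts, 56 of 71, and 1 rose, with a median of -0.26 that is nearer to 0 than that of all genes. Of these falls 1 was at least 2-fold. rpl-25.2, the gene that rose, had 842 to 1026 CPM in adults, against 446 to 569.8 CPM at L4 (log2 0.90, SE 0.07, edgeR adjusted p = 6.89e-09). Genes of RNA interference and nonsense-mediated decay rose in 29 and fell in 6 of 39 tested cases, with a median of 1.21. hrde-1 (C16C10.3; chromosome III, 4172337 to 4176161), the nuclear Argonaute of the germ line, had 248 to 358 CPM in adults (median 340.2), against 9.65 to 19.5 CPM at L4 (median 14.3) (log2 4.47, SE 0.18, edgeR adjusted p = 5.59e-12). ego-1, an RNA-dependent RNA polymerase of the germ line, had 118 to 153 CPM in adults, against 3.69 to 8.56 CPM at L4 (log2 4.50, SE 0.14, edgeR adjusted p = 2.54e-13). The Piwi gene prg-1 had 184 to 246 CPM in adults, against 18.9 to 30.6 CPM at L4 (log2 3.20, SE 0.12, edgeR adjusted p = 1.54e-12). The Argonautes of sperm development fell: alg-4 had 0 CPM in all 6 adult libraries, against 1.6 to 4.12 CPM at L4, at least 169-fold lower in adults, and alg-3 had 0 to 0.436 CPM in adults, against 1.17 to 3.65 CPM at L4 (log2 -5.01, SE 0.97, edgeR adjusted p = 0.00019). alg-1, an Argonaute of microRNAs in somatic cells, had 23.5 to 30.6 CPM in adults, against 127 to 151 CPM at L4 (log2 -2.32, SE 0.085, edgeR adjusted p = 1.25e-12).

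The 10 largest rises by the naming rule were nlp-39, cnc-7, ins-19, dsl-2, col-95, skr-14, thn-1, nlp-56, cyp-29A4 and clec-222. nlp-39 (C54C8.9; chromosome I, 12461645 to 12462097), a neuropeptide-like gene, had 5.92 to 19.9 CPM in adults, against 0 CPM in all 6 L4 libraries, at least 746-fold higher in adults. ins-19 (T10D4.13; chromosome II, 3126032 to 3126441), an insulin-like peptide gene, had 31.6 to 128 CPM in adults (median 59.7), against 0 to 0.162 CPM at L4 (median 0) (log2 11.05, SE 0.37, edgeR adjusted p = 8.12e-13). dsl-2, of the family of Notch ligands, was at least 342-fold higher, and col-95, a collagen, had 1241 to 2639 CPM in adults, against 0.841 to 3.91 CPM at L4 (log2 9.55, SE 0.34, edgeR adjusted p = 7.27e-12). skr-14, a Skp1-related protein, had 1219 reads over the 6 adult libraries and 2 over the 6 L4 libraries, an adult-to-L4 ratio of 610.4 (169 to 5046) with its 95% counting interval. thn-1, a thaumatin-like protein, had 9.53 to 76.8 CPM in adults, against 0 to 0.291 CPM at L4 (log2 8.59, SE 0.46, edgeR adjusted p = 1.21e-10). The neuropeptide gene nlp-56 had 37.7 to 57.3 CPM in adults, against 0 to 0.267 CPM at L4 (log2 8.54, SE 0.27, edgeR adjusted p = 2.55e-13). The naming rule asks that all 6 adult libraries lie above all 6 L4 libraries, so this order is set by the choice of these genes. Over all genes tested it held for 4958 (30.9%). The opposite order held for 5970 (37.2%).

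The strains were compared in the same fit, as the stage change of strain 1 minus that of strain 2. The difference was called for 584 of 16043 genes (3.64%), larger (more positive) in strain 1 for 446 (2.78%) and in strain 2 for 138 (0.86%), and 2829 genes had an unadjusted p under 0.05. The difference was also at least 2-fold for 349 genes (2.18%), 264 larger in strain 1 (1.65%) and 85 in strain 2 (0.53%). Of the 584, 433 changed in the same direction in both strains, 40 in opposite directions, 52 were called in strain 1 alone and 59 in strain 2 alone. The number depended on single libraries. Without adult replicate 2 of strain 1 the counts were 178 larger in strain 1 and 123 in strain 2, and without adult replicate 3 of strain 2 they were 288 and 390. They were 245 and 80 without L4 replicate 1 of strain 1, between 252 and 283 and between 67 and 81 without any 1 L4 replicate of strain 2, and 312 and 85 without adult replicate 3 of strain 1. The median difference over all genes, 0.12, was -0.02 without adult replicate 2 of strain 1 or adult replicate 3 of strain 2. The share of calls larger in strain 1 was 76.4%, against 65% with size factors in place of TMM and 64% with library totals, so the direction of small differences is uncertain.

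**Figure D4:**
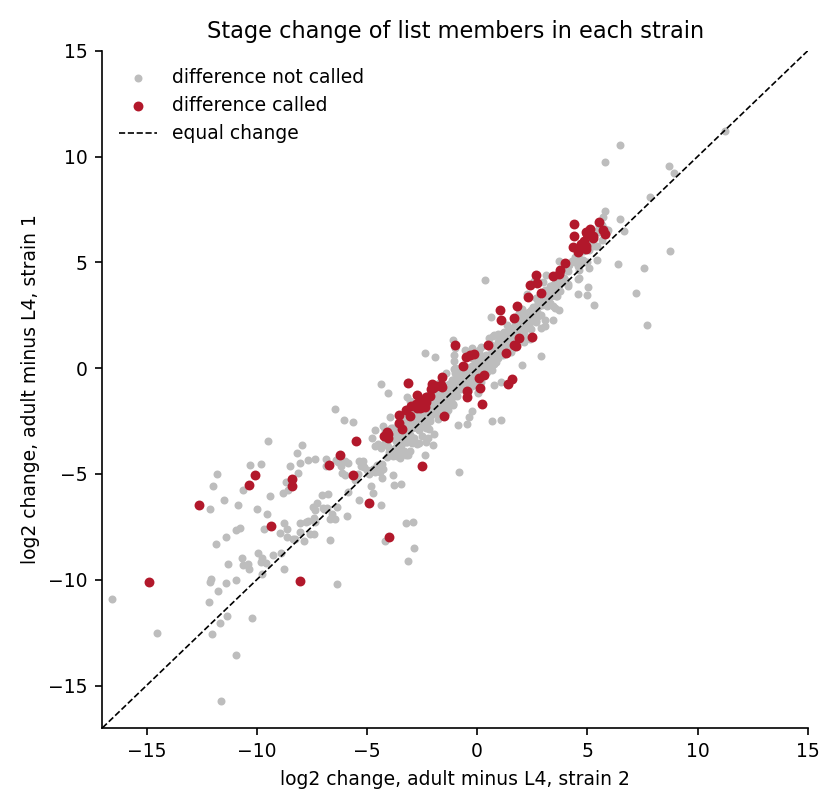
Stage change, adults over L4 on the log2 scale, of 1029 list members in strain 1 and in strain 2, with the 97 members whose difference was called in colour. Most members lie along the diagonal, and adult collagens and muscle genes lie on the side of strain 1.

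Collagens of the adult cuticle parted the strains. The difference was larger in strain 1 for 10 of the 18 adult cuticle collagens and in strain 2 for 0, against 2.78% and 0.86% of all genes, with a median of 1.55 (0.12 for all genes). The number was 7 to 10 when single libraries were left out. Their summed level was 13000 ± 957 CPM in strain 1 adults and 7370 ± 1600 CPM in strain 2 adults, and 4120 ± 180 CPM in strain 1 and 4800 ± 128 CPM in strain 2 at L4 (SD, n = 3 each). col-19 had 1101, 1263 and 1016 CPM in strain 1 adults and 686, 557 and 426 CPM in strain 2 adults. At L4 it had 156, 189 and 157 CPM in strain 1 and 289, 259 and 274 CPM in strain 2. Strain 1 was higher as an adult and lower at L4, with no overlap at either stage (difference log2 1.73, SE 0.20, edgeR adjusted p = 0.000168). col-119 had 3377, 3697 and 3117 CPM in strain 1 adults and 2023, 1701 and 1231 CPM in strain 2 adults, with 143.7, 192 and 145 CPM and 264, 257 and 259.5 CPM at L4 (difference log2 1.74, SE 0.22, edgeR adjusted p = 0.000302). col-124, for which the stage change over both strains did not pass, had 572, 665 and 562 CPM in strain 1 adults and 239, 205 and 158 CPM in strain 2 adults, with 259, 303 and 269 CPM and 444, 379 and 394 CPM at L4. It was higher in adults by 1.11 in strain 1 and lower by a change of -1.01 in strain 2, both called (difference log2 2.13, SE 0.19, edgeR adjusted p = 1.39e-05). Among collagens outside that list, named after their values were seen, col-20 differed by 2.39 (SE 0.24), col-8 by 2.21 (SE 0.22) and col-93 by 2.01 (SE 0.22).

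Muscle genes also parted. Of 39 body wall muscle contractile genes, 15 fell less in strain 1 and 0 fell less in strain 2, with a median difference of 0.52. The number was 6 without adult replicate 2 of strain 1, and 9 without L4 replicate 1 of either strain, and the median was 0.20 without adult replicate 3 of strain 2. These 15 are act-1, act-3, act-4, csq-1, dim-1, lev-11, mlc-1, mlc-2, mlc-3, mup-2, pat-10, tnt-2, unc-15, unc-27 and unc-87. lev-11 (Y105E8B.1; chromosome I, 14621206 to 14631254), tropomyosin, had 554, 675 and 619 CPM in strain 1 adults and 445, 371 and 293 CPM in strain 2 adults, with 1496, 1655 and 1675 CPM and 2024, 1748 and 1834 CPM at L4. Adults of strain 1 were higher than those of strain 2, while L4 larvae of strain 1 were lower (difference log2 0.95, SE 0.18, edgeR adjusted p = 0.00973). unc-15 (F07A5.7; chromosome I, 7376902 to 7379486), paramyosin, had 269, 299 and 251 CPM in strain 1 adults and 186, 155 and 126 CPM in strain 2 adults, with 677, 609 and 759.5 CPM and 735, 694 and 626 CPM at L4, where the strains overlapped (difference log2 0.82, SE 0.19, edgeR adjusted p = 0.0236). Without adult replicate 2 of strain 1 neither passed, and unc-15 also did not without L4 replicates 1 or 2 of either strain, with edgeR adjusted p of up to 0.0559 for lev-11 and 0.118 for unc-15. mlc-1 and mlc-2, near-identical myosin light chains, differed by 1.34 (SE 0.19) and 1.29 (SE 0.21). myo-3 did not pass, with a difference of 0.47 (SE 0.22) and an edgeR adjusted p of 0.285. In adult replicate 3 of strain 2 the median member lay 0.380 below the rest of its group in this list and 0.354 below it among the adult collagens.

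**Figure D5:**
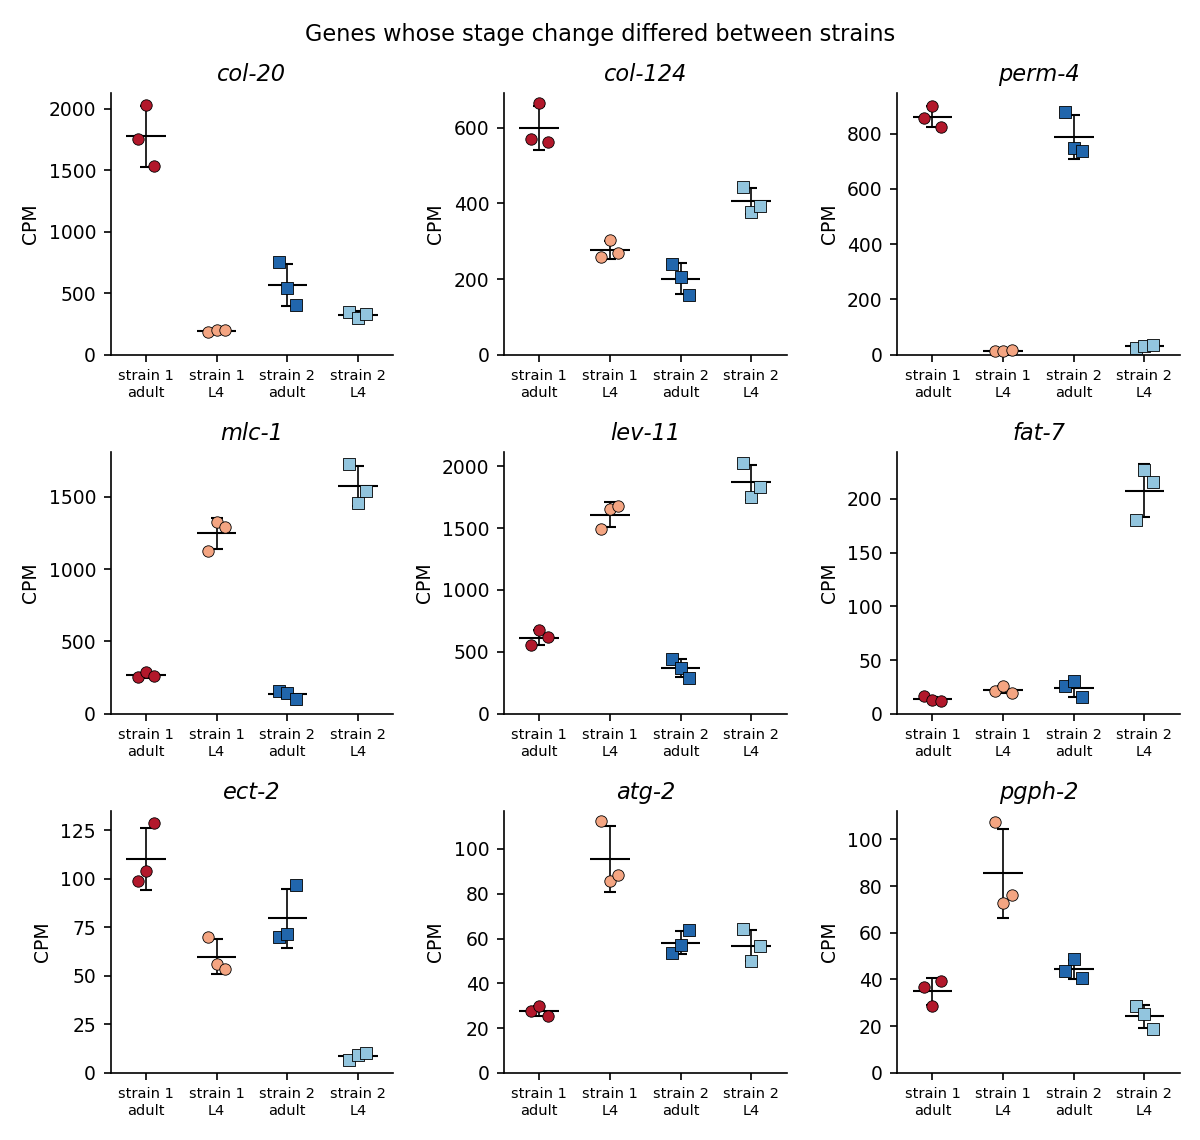
CPM by strain and stage of genes whose stage change differed between the strains, on a linear axis, with 3 libraries in each group. From left to right, each panel shows strain 1 adults, strain 1 L4 larvae, strain 2 adults and strain 2 L4 larvae. fat-7 is at 19.8 to 26 CPM in L4 larvae of strain 1, against 180 to 227 CPM in L4 larvae of strain 2.

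The eggshell list had 8 genes with a larger rise in strain 1 and 1, pod-1, in strain 2, of 17, with a median difference of 0.95. perm-4 (C44B12.5; chromosome IV, 1121457 to 1125283), of the permeability barrier of the shell, had 857, 901 and 825 CPM in strain 1 adults and 879, 747 and 738 CPM in strain 2 adults, with 13.8, 14.1 and 16.8 CPM and 24.6, 31.4 and 34.8 CPM at L4. The adults of the strains overlapped, and the L4 larvae of strain 1 were lower (difference log2 1.15, SE 0.18, edgeR adjusted p = 0.00198). cbd-1 had 5.89, 6.59 and 6.71 CPM in L4 larvae of strain 1 and 15.3, 17.3 and 22.8 CPM in those of strain 2 (difference log2 1.48, SE 0.27, edgeR adjusted p = 0.00735). The call of pod-1 was lost without each of 6 of the 12 libraries (edgeR adjusted p of up to 0.0754), and the number larger in strain 2 was 0 to 3 over the alternatives. The number larger in strain 1 was 5 without any 1 of L4 replicates 1 and 2 of strain 1 or adult replicate 2 of strain 2. For the yolk list the number was 4 of 7. It was 1 without adult replicate 2 of strain 1, and 2 without adult replicate 3 or L4 replicate 2 of either strain, or L4 replicate 3 of strain 2. For the major sperm proteins it was 6 of 29, 10 with DESeq2, 3 with the replicate number as a block, and 2 or 3 without adult replicate 3 or L4 replicates 1 or 2 of strain 1, adult replicates 2 or 3 of strain 2, or any L4 replicate of strain 2. Over all genes the share larger in strain 1 was 2.78%. These sperm genes share reads, so their calls are not separate. They summed to 6.92 ± 1.7 CPM in strain 1 adults and 2.81 ± 1.59 CPM in strain 2 adults, near the floor. At L4 the sums were 263 ± 85.2 CPM in strain 1 and 474 ± 33.7 CPM in strain 2 (SD, n = 3 each).

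The desaturase genes fat-5, fat-6 and fat-7 differed between the strains. fat-7 (F10D2.9; chromosome V, 7151356 to 7153146), a stearoyl-CoA desaturase, had 16.3, 13.2 and 12.1 CPM in strain 1 adults and 25.6, 30.6 and 15.3 CPM in strain 2 adults. At L4 it had 21.4, 26 and 19.8 CPM in strain 1 and 180.3, 227 and 216 CPM in strain 2. L4 larvae of strain 1 were the low group, so that the fall to adulthood was -0.70 in strain 1 and -3.12 in strain 2 (difference log2 2.43, SE 0.28, edgeR adjusted p = 0.000175). fat-6 (VZK822L.1; chromosome IV, 11913690 to 11915687), its close paralogue with which it may share reads, had 347, 368 and 332 CPM in strain 1 adults and 573, 649 and 389.7 CPM in strain 2 adults, with 217, 253 and 249.5 CPM and 750.3, 778 and 774 CPM at L4 (difference log2 1.06, SE 0.20, edgeR adjusted p = 0.00826). fat-5 was lower in strain 1 at both stages, with 29.6, 36.7 and 29.7 CPM in strain 1 adults and 128, 122.9 and 73 CPM in strain 2 adults, and 1.88, 2.32 and 1.8 CPM and 16.14, 15.5 and 17.6 CPM at L4 (difference log2 1.28, SE 0.28, edgeR adjusted p = 0.019). With nhr-66, whose call was lost without each of 10 of the 12 libraries (edgeR adjusted p of up to 0.181), these were the 4 of 27 genes of the list called as larger in strain 1, against 2.78% of all genes. The number was 1 without adult replicate 2 of strain 1 and 2 without L4 replicate 1 of strain 1 or L4 replicate 3 of strain 2. Without adult replicate 2 of strain 1 the edgeR adjusted p was 0.0648 for fat-6, and fat-5 had up to 0.0905 over these 3 omissions.

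Genes with a more positive change in strain 2 were led, among those with at least 5 CPM in all groups and named after their values were seen, by ect-2, pgph-2, ctl-3 and lipl-1. ect-2 (T19E10.1; chromosome II, 10778395 to 10783289), which acts in cell division, had 98.7, 103.8 and 128 CPM in strain 1 adults and 70.2, 71.4 and 96.9 CPM in strain 2 adults. At L4 it had 69.9, 55.8 and 53.4 CPM in strain 1 and 6.76, 9.25 and 10.2 CPM in strain 2, so the strains stood farther apart as larvae (difference log2 -2.301, SE 0.24, edgeR adjusted p = 5.67e-05). pgph-2, a phosphoglycolate phosphatase homologue, changed by -1.29 in strain 1 and by 0.87 in strain 2 (difference log2 -2.17, SE 0.25, edgeR adjusted p = 0.000139). atg-2 (M03A8.2; chromosome X, 6809104 to 6817632), an autophagy protein, had 27.5, 29.8 and 25.3 CPM in strain 1 adults and 53.7, 56.9 and 63.8 CPM in strain 2 adults, with 112.4, 85.5 and 88.4 CPM and 64.1, 49.9 and 56.4 CPM at L4 (difference log2 -1.83, SE 0.18, edgeR adjusted p = 3.77e-05). Its change was -1.80 in strain 1, which was called, and 0.03 in strain 2, which was not. lipl-1, a lysosomal lipase, differed by -2.09 (SE 0.37), ctl-3, a catalase, by -2.11 (SE 0.40) and pat-3, the integrin beta chain, by -0.63 (SE 0.12).

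The genes with the largest fitted differences were mostly near 0 in the adults of a strain, and their fitted values then depend on the prior count. col-133 had 0.707, 0.267 and 0.561 CPM in strain 1 adults and 0, 0 and 0 CPM in strain 2 adults, against 482, 424 and 380.2 CPM and 358, 308 and 292 CPM at L4. clec-222 (C03E10.6; chromosome V, 11271351 to 11272469), a C-type lectin, had 138, 155 and 109 CPM in strain 1 adults and 121, 111 and 95.2 CPM in strain 2 adults, with 0.0355, 0 and 0 CPM and 0.673, 1.16 and 1.43 CPM at L4, so the strains parted in traces at L4 (difference log2 6.39, SE 0.71, edgeR adjusted p = 0.000108). srlf-2 had 6.88, 6.25 and 8.04 CPM in strain 1 adults and 0.851, 0.0305 and 0 CPM in strain 2 adults, with 22.9, 28.1 and 26.3 CPM and 0, 0 and 0 CPM at L4, and fbxb-22 and clec-239 too were higher in strain 1 at both stages. The call of srlf-2 was lost in turn without each of 10 of the 12 libraries. With at least 1 CPM asked for in all 4 groups, 459 of the 584 differences were left, 360 larger in strain 1 and 99 in strain 2.

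The stage change of 123CUG worms was also set against that of 0CUG worms, in a fit of 24 libraries. In 0CUG worms 14260 of 17248 genes were called (82.7%), of which 5935 rose (34.4%) and 8325 fell (48.3%). The difference, 123CUG minus 0CUG, was called for 1022 genes (5.93%), larger in 123CUG for 686 (3.98%) and in 0CUG for 336 (1.95%), and 3223 had an unadjusted p under 0.05. The share of calls larger in 123CUG was 67.1%, against 55.9% with DESeq2 and 48.9% without adult replicate 2 of 123CUG strain 2, when 451 were larger in 123CUG and 471 in 0CUG. Without adult replicate 2 of 123CUG strain 1 the counts were 450 and 299. There are 2 strains per construct, and 47 differences larger in 123CUG and 8 larger in 0CUG were called in all 4 pairs of strains.

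Of 39 body wall muscle contractile genes, 0 differed as larger in 123CUG and 1 as larger in 0CUG, against 3.98% and 1.95% of all genes, with a median difference of -0.04. Over the alternatives the number larger in 0CUG was 1 to 4, with 4 under no filter and 3 with DESeq2. Among the adult cuticle collagens 9 of 18 were larger in 123CUG, with a median of 1.54, and 9 to 10 were when single 123CUG libraries were left out. col-19 averaged 1127 ± 126 CPM in strain 1 and 556 ± 129.9 CPM in strain 2 of 123CUG adults, against 715 ± 97.1 CPM and 422 ± 25.8 CPM in the same strain numbers of 0CUG adults (SD, n = 3 each). At L4 the averages were 167 ± 19 CPM and 274 ± 15 CPM in 123CUG, against 656 ± 80.9 CPM and 375 ± 57.7 CPM in 0CUG (difference log2 1.74, SE 0.14, edgeR adjusted p = 5.58e-09). Both 123CUG strains were lower as larvae, whereas of the 0CUG adults one average lay between and the other below those of the 123CUG adults. Of the yolk genes 6 of 7 were larger in 123CUG, with a median of 1.59, and rme-2 was larger in 0CUG, at -0.87 (SE 0.26), a call lost in turn without each of 7 of the 12 123CUG libraries. vit-2 averaged 38240 ± 1976 CPM and 33450 ± 3687 CPM in strains 1 and 2 of 123CUG adults, against 22370 ± 1918 CPM and 53660 ± 5305 CPM in 0CUG adults, and 546 ± 46.5 CPM and 864 ± 55.1 CPM in 123CUG larvae, against 2201 ± 265 CPM and 1558 ± 248 CPM in 0CUG larvae (difference log2 1.48, SE 0.12, edgeR adjusted p = 7.48e-09). The adult averages of the 0CUG strains lay on both sides of those of 123CUG, whereas both 0CUG strains were higher at L4. By these averages the fold rise of vit-2 was largest in strain 1 of 123CUG and smallest in strain 1 of 0CUG. The rises in strain 2 of both constructs were close to each other, so the size of the difference depends on the strains compared.

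Among genes called in all 4 pairs, acox-1.2 fell less in 123CUG worms. With the average of strain 1 given before that of strain 2, it had 65.1 ± 8.96 CPM and 51.4 ± 14.4 CPM in 123CUG adults, against 13.8 ± 1.98 CPM and 23.7 ± 5.24 CPM in 0CUG adults, and 361 ± 70.5 CPM and 544 ± 24.5 CPM in 123CUG larvae, against 492 ± 23.9 CPM and 590.1 ± 82.3 CPM in 0CUG larvae (difference log2 1.96, SE 0.18, edgeR adjusted p = 1.32e-07). dhs-26, a short-chain dehydrogenase, averaged 27.6 ± 6.93 CPM and 22.9 ± 1.54 CPM in 123CUG adults, against 3.67 ± 0.757 CPM and 3.35 ± 1.09 CPM in 0CUG adults, and 0.489 ± 0.18 CPM and 0.837 ± 0.446 CPM in 123CUG larvae, against 1.57 ± 0.512 CPM and 1.28 ± 0.396 CPM in 0CUG larvae (difference log2 3.99, SE 0.36, edgeR adjusted p = 1.86e-08). timm-17B.2, a subunit of the mitochondrial import channel, averaged 24.6 ± 2.66 CPM and 22.7 ± 6.28 CPM in 123CUG adults, against 24.7 ± 2.52 CPM and 17.2 ± 2.06 CPM in 0CUG adults. At L4 it averaged 2.07 ± 1.15 CPM and 2.63 ± 0.478 CPM in 123CUG, against 7.92 ± 0.621 CPM and 6.48 ± 2.29 CPM in 0CUG (difference log2 1.80, SE 0.28, edgeR adjusted p = 0.000103). sup-17 (DY3.7; chromosome I, 8792965 to 8797293), the ADAM protease that cleaves Notch, rose in 0CUG worms (log2 1.51, SE 0.056, edgeR adjusted p = 1.08e-18), while its change in 123CUG worms did not pass (log2 0.07, SE 0.088, edgeR adjusted p = 0.447). It averaged 225 ± 5.55 CPM and 145 ± 1.29 CPM in 123CUG adults, against 128 ± 5.42 CPM and 109 ± 3.79 CPM in 0CUG adults, and 257 ± 1.38 CPM and 114.8 ± 6.36 CPM in 123CUG larvae, against 44.4 ± 3.13 CPM and 38.7 ± 2.12 CPM in 0CUG larvae (difference log2 -1.44, SE 0.077, edgeR adjusted p = 4.61e-12). The 123CUG change of 0.07 joins strains that moved opposite ways. By these averages sup-17 was lower in adults than at L4 in strain 1 and higher in strain 2. Some of the largest differences rest on a single 0CUG strain. wrt-4, with a difference of -7.20 (SE 1.24), averaged 21.8 ± 3.01 CPM in adults of 0CUG strain 1 and 0.0929 ± 0.161 CPM in those of 0CUG strain 2, and lad-2, ubc-24 and ccep-290 were high in adults of 0CUG strain 1 as well.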

How the data were processed

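Whole worms were profiled by RNA-seq, and the authors deposited tables of read counts per gene in whole numbers with no normalization, 1 table for each pair of groups. Reads were mapped with HISAT2 to WBcel235 and the authors' own tests used DESeq2, per the submitters' processing notes. No label or note used here gives the counter, the annotation release, the tool versions or whether counting used strand. The 8 tables, each with 19268 to 21488 genes, were joined by gene ID into 23990 genes. Libraries that occur in more than 1 table gave 457776 equal values and 0 that differed. Names, sequence names and positions (WBcel235) came from the Ensembl annotation, which held 23668 of these IDs and lacked 322. Loci with no name took 0.036% to 0.0643% of the reads and were left out, and the other 96 columns of per-sample values were not used.

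The stage change was tested with edgeR 4.0.16 in R 4.3.3 (TMM scaling, filterByExpr, quasi-likelihood F test with robust settings), with strain as a covariate over 12 libraries. The change per strain and their difference came from a fit with 1 coefficient per strain and stage, and the difference between constructs from a like fit of the 24 transgenic libraries. p-values were adjusted by Benjamini-Hochberg over all genes tested, with a threshold of 0.05. The standard error (SE) is the log2 change divided by the square root of F. CPM in the text are on a single TMM scale over the 24 libraries. A fold against a stage with no read is a lower bound that takes 3 reads over its 6 libraries as the floor, and ratios of few reads have exact 95% intervals. These bounds and intervals cover counting error only.

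The members and gene lists were chosen with earlier results of these data known. Genes were named by rule: mbl-1, myo-3 and all cpt genes; the 10 strongest rises and falls of protein-coding genes that have a name, reach 5 CPM in the higher stage of both strains, are called alike in each strain and show no overlap of libraries; the 10 largest differences each way between strains and between constructs; and within each list the largest called changes (up to 4 each way), members the list is named for and those that did not pass. No library was a repeat of another, since the lowest median chi-square between libraries of a group was 3.41, against 0.455 for sampling noise. On simulated counts with known changes of 2-fold and 4-fold, 82% and 97% were called for the stage change (16043 genes), 48% and 86% for the difference between strains (16043 genes), and 74% and 95% for that between constructs (17248 genes). Each simulation changed 100 genes at each fold, in random directions and none with a low mean level, and left all others unchanged. In the data 83.5% of genes were called for the stage change, so these rates describe the simulated setting and need not hold here. The alternatives were size factors, library totals, no filter, DESeq2 1.42.0, a replicate block, a 2-fold limit, other fits and each library left out in turn. Some genes of the lists are not reported here.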

Additional observations from a re-analysis of the deposited data

Results flagged for a closer look

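The stage change differed between the strains for the following genes, by edgeR's test of the difference itself (log2, strain 1 minus strain 2, adjusted p under 0.05), which are the 10 largest each way by the naming rule. Larger in strain 1 were snf-5 at 7.54, col-133 at 6.48, col-161 at 6.47, clec-222 at 6.39, grl-7 at 6.19, msp-81 at 6.13, clec-239 at 5.99, tbc-16 at 5.04, msp-57 at 5.03 and msp-64 at 4.82. Larger in strain 2 were srlf-2 at -7.90, delm-2 at -6.95, fbxb-22 at -6.88, dod-20 at -6.58, abu-13 at -6.16, cutl-28 at -5.42, nspc-15 at -4.82, gskl-2 at -4.15, ptr-10 at -4.02 and mnm-2 at -3.79. Adults of strain 2 had no read of snf-5, col-133, col-161, grl-7, msp-81 and clec-239, adults of strain 1 none of delm-2, dod-20, abu-13 and cutl-28, and L4 larvae of strain 2 none of srlf-2 and fbxb-22, so that these fitted values depend on the prior count. The calls of snf-5, msp-81, srlf-2, delm-2, fbxb-22, cutl-28, nspc-15 and gskl-2 were each lost under 8 to 11 of the 12 omissions of 1 library.

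Between the constructs the same test gave the following differences (log2, 123CUG minus 0CUG). Larger in 123CUG were lips-12 at 8.94, thn-1 at 4.92, lipl-3 at 4.45, dhs-26 at 3.99, clec-222 at 3.95, nspd-9 at 3.88, eya-1 at 3.84, ztf-30 at 3.53, aptf-3 at 3.52 and cest-28 at 3.0. Larger in 0CUG were wrt-4 at -7.20, lad-2 at -4.40, osm-5 at -3.21, atln-2 at -3.16, srlf-35 at -3.15, ubc-24 at -3.12, ccep-290 at -3.06, cav-1 at -2.90, srr-6 at -2.85 and clc-11 at -2.76. The calls of nspd-9 (adjusted p of up to 0.249), ztf-30 and ubc-24 were each lost without 1 of the 12 123CUG libraries, and those of osm-5 and cav-1 without each of 2. The differences of thn-1, lipl-3, clec-222, nspd-9 and ztf-30 were not called in all 4 pairs of strains. L4 larvae of 123CUG strain 1 had 0 CPM of thn-1 and lipl-3 and averaged 0.0118 CPM of clec-222. The stage change of clec-222 was 13.03 in strain 1 and 6.64 in strain 2 of 123CUG, against 5.16 and 6.65 in 0CUG. lips-12, a lipase-like gene, averaged 0.344 CPM in strain 1 and 0.254 CPM in strain 2 of 123CUG adults, against 0.243 CPM and 6.85 CPM in 0CUG adults, while at L4 it had 0 and 0.0118 CPM in 123CUG, against averages of 17.4 CPM in strain 1 and 16.51 CPM in strain 2 of 0CUG. aptf-3, an AP-2 type transcription factor, averaged 35.4 and 29.5 CPM in strains 1 and 2 of 123CUG adults, against 42.95 and 44.9 CPM in 0CUG adults, and 0.874 and 0.748 CPM in 123CUG larvae, against 12.42 and 13.05 CPM in 0CUG larvae. lad-2 averaged 0.38 and 0.217 CPM in strains 1 and 2 of 123CUG adults, against 132 CPM in adults of 0CUG strain 1 and 0.587 CPM in those of 0CUG strain 2.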

How the results depend on the processing

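The counts of genes called for the stage change, over both strains and in each strain, stayed within 1.5 times under every alternative of method, filter, scaling, block, fit and omission of a library. Over both strains they were 5797 rises and 7815 falls with DESeq2, 5598 and 7801 with library totals and 6128 and 8121 in the fit of 24 libraries. The difference between strains moved more (446 larger in strain 1 and 138 in strain 2). It gave 727 and 457 with DESeq2, 295 larger in strain 1 with library totals, 271 larger in strain 2 with no filter, 264 and 85 with a 2-fold limit, and 360 and 99 with at least 1 CPM in all 4 groups, a limit chosen after seeing the data. Leaving out a library gave 178 to 458 larger in strain 1 and 67 to 390 in strain 2. The difference between constructs (686 larger in 123CUG and 336 in 0CUG) gave 673 larger in 0CUG with DESeq2, 660 larger in 0CUG with no filter, 1659 larger in 123CUG against 0CUG strain 1 alone, 903 larger in 0CUG against 0CUG strain 2 alone, and 47 and 8 in all 4 pairs of strains. Leaving out a 123CUG library gave 450 to 743 and 277 to 471. The cause of these moves was not tested. For the genes that the naming rule takes for each comparison, all 475 values of the stage change under alternatives kept their direction and side of the threshold, the difference between strains kept them in 573 and lost the call in 107, that between constructs kept them in 499 and lost the call in 11, and 0 reversed. Over all called list members and named genes, at least 1 omission of a library ended 37 of 980 calls of the stage change, 74 of 131 of the difference between strains and 55 of 156 of that between constructs. Deviations of libraries with the same replicate number had correlations of -0.0114 to 0.0292 over 6 pairs. In strain 1 these were 0.0197 to 0.0292, against -0.0195 to -0.0031 for unlike numbers, while in strain 2 like and unlike numbers overlapped. With 3 libraries in each group, such small values cannot decide whether the numbers pair the libraries. With the replicate number as a block the counts were 5699 and 7387 for the stage change, 296 and 66 for the difference between strains, and 508 and 234 for that between constructs. Depth limits genes with few reads, for which a fold is a bound or has a wide interval.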

Other observations

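The direction of the stage change varied by chromosome. On X, 406 of 2293 genes tested rose in adults (17.7%) and 1482 fell (64.6%), with a median change of -1.16 on the log2 scale. On V, 1021 of 3287 rose (31.1%) and 1699 fell (51.7%), with a median of -0.77. On I and III more genes rose than fell, 1171 against 999 of 2581 on I and 1098 against 903 of 2400 on III. Chromosomes II and IV lay between, with medians of -0.15 and -0.34. Among pseudogenes 129 of 318 rose (40.6%) and 99 fell (31.1%), with a median of 0.52, against 36.5% and 47.8% of protein-coding genes. Reads of a pseudogene and of its parent gene may be shared. Of 14 mitochondrial genes tested, 2 rose and 5 fell. These shares are descriptions, since genes are not independent of each other.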
